A study of Rattus norvegicus with 2 samples.

Results

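Short-span circular RNAs (circRNAs) were taken from a circRNA sequencing study of a rat model of bone cancer pain. They are all rows with 1 host gene name whose back-splice ends lay 500 bp or less apart, counted as end minus start plus 1, leaving out chromosome Y. The rule found 1354 of the 17260 circRNAs considered, from 1160 host gene names, and 13801 circRNAs with 1 host name had a larger span. Per the labels, animals of the bone cancer pain group received live Walker256 cells, a breast carcinoma line of the rat collected from ascites, injected into the marrow cavity of the tibia. The control group received Walker256 cells that had been boiled for 20 minutes, with the same surgery. Each group had 3 Sprague-Dawley (SD) rats, killed 21 days after surgery, and whether their RNA was pooled is not given in the sources used here. RNA of both groups was depleted of ribosomal RNA and treated with RNase R, an exonuclease that removes linear RNA. The labels name the source both as cancer cells and as spinal cord cells. There was 1 library per group, so nothing below is a test between conditions, and each ratio compares 2 libraries.

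The identifiers of the table are human, while the labels say rat. Of the 1354 short circRNAs, 742 carried a human (hsa) identifier of circBase, a catalogue of published circRNAs, and 14 and 33 lay on chromosomes 21 and 22, which the rat does not have. The table names no genome build, and gene names and positions below are printed as it gives them. Reads over circular junctions numbered 159941 for the control library and 151685 for bone cancer pain. No listed value was under 2 reads, so a circRNA that is not listed in a library may still have had 1. None of the short circRNAs came from the marker genes listed for neurons (16 genes), oligodendrocytes (9), microglia and macrophages (7), or carcinoma and epithelium (7). Of 7 astrocyte markers, the gap junction gene GJA1 had 1 short circRNA, with 4 reads for bone cancer pain and none listed for the control. Genes that lack a short circRNA may still be expressed.

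A circRNA is made when the spliceosome joins the end of an exon back to the start of the same or an earlier exon. A back-splice across 500 bp or less of genome leaves room for 1 exon, or for a few exons with very short introns between them. Short circles lack free ends and resist exonucleases, as larger ones do. A junction read alone does not show that a circle exists. The table gives no exon structure, and exon annotation was not used here, so a span is a distance in the genome and not the length of the RNA.

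The short circRNAs had spans from 137 to 500 bp, with a median of 271.5 bp and a middle 50% from 201 to 377.8 bp. The class up to 200 bp held 335 of them, 201 to 300 bp held 437, 301 to 400 bp held 317 and 401 to 500 bp held 265. The largest class was therefore 201 to 300 bp. Among those with 20 or more reads, the shortest was a circRNA of the linker histone gene HIST1H1C (hsa_circ_0001584, 138 bp, chr6:26056275-26056412), with 23 control reads and 41 bone cancer pain reads. It was followed by 1 of CIRBP, a cold-inducible RNA-binding protein (139 bp, 12 and 10 reads), and 1 of the small GTPase gene RAP1B (141 bp, 16 and 4 reads). At the other end stood DCTN2, a dynactin subunit (500 bp, 13 and 13 reads), ZMYM4 (500 bp, 10 and 16) and CSTF3, a cleavage factor of mRNA 3′ ends (498 bp, 15 and 8). Just outside the limit were circRNAs of FAM210A (501 bp, 11 and 6 reads), NFXL1 (502 bp, 2 and none listed), DNAJB6 (502 bp, 3 and none listed) and EZR (503 bp, 3 and none listed).

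**Figure D1:**
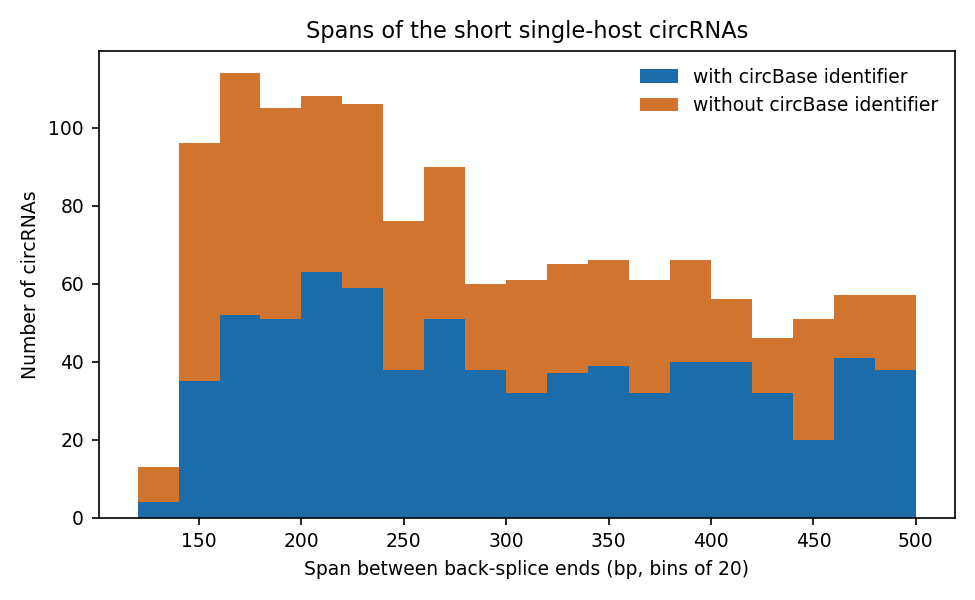
Number of short single-host circRNAs (vertical axis) by span in bp (horizontal axis, bins of 20), stacked by whether the table gives a circBase identifier. Spans run from 137 to 500 bp, and circRNAs without an identifier take the larger part of the class up to 200 bp.

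Catalogue status went with span. A circBase identifier was given for 742 short circRNAs (54.8%, exact binomial 95% interval 52.1 to 57.5), against 59.0% (58.2 to 59.8) of those over 500 bp. Among the latter it was 63.4% from 501 to 1000 bp and 51.2% from 50001 bp on, below the share of the short ones. Intervals on shares and ratios cover counting error only, and PCR reads without molecular identifiers are not independent molecules. Within the short circRNAs, the share was 43.3% up to 200 bp, 56.8% from 201 to 300 bp, 56.8% from 301 to 400 bp and 63.8% from 401 to 500 bp. The catalogued ones had a median of 9 reads over both libraries and the 612 uncatalogued ones a median of 3. Both libraries listed 439 of the catalogued (59.2%, 55.5 to 62.7) and 158 of the uncatalogued (25.8%, 22.4 to 29.5). The same 2 shares among circRNAs over 500 bp were 56.8% and 25.3%. The span was a multiple of 3 for 32.2% (28.9 to 35.7) of the catalogued and 38.6% (34.7 to 42.6) of the uncatalogued, beside 33.6% (32.8 to 34.4) over 500 bp.

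Short circRNAs were spread over the chromosomes differently from longer ones. Chromosome 19, a gene-dense human chromosome, held 131 of the 1354 (9.68%, 8.15 to 11.4) and 412 of the 13801 longer ones (2.99%, 2.71 to 3.28). Of its circRNAs with 1 host name, 24.1% were short, against 9.20% on chromosome 1, which held 140 short circRNAs, the most of any. Shares of short circRNAs were also larger on chromosome 16 (75 short, 12.9%) and X (39 short, 13.8%) and smaller on chromosome 5 (40 short, 5.07%). These are shares of listed junctions, with no test.

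In the control library 1003 short circRNAs were listed, in the bone cancer pain library 948, and in both 597 (44.1%, 41.4 to 46.8; 43.9% over 500 bp). The 406 listed only in the control (30.0%, beside 28.6% of all 17260 circRNAs) had 1488 reads. The 351 listed for bone cancer pain alone (25.9%, beside 29.4% of all) had 1339. In all, short circRNAs took 16081 control reads (10.1%, 9.91 to 10.2) and 14356 bone cancer pain reads (9.46%, 9.32 to 9.61). The ratio of these shares, bone cancer pain over control, was 0.94 (exact conditional binomial 95% interval 0.92 to 0.96), and it was 1.00 (0.99 to 1.01) for circRNAs over 500 bp. Most short circRNAs were rare, with 628 at 2 to 4 reads over both libraries and 885 under 10, while 50 had 100 or more. The 15 with the most reads took 28.9% of the control and 32.1% of the bone cancer pain reads on short circRNAs. Without the junctions of RPPH1, described below, short circRNAs took 9.15% of the reads in the control and 7.93% for bone cancer pain.

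The summed ratios lay on opposite sides of 1 by catalogue status. Catalogued short circRNAs had 12331 control reads and 9927 bone cancer pain reads (ratio 0.85, 0.83 to 0.87). Uncatalogued ones had 3750 and 4429 (1.25, 1.19 to 1.30). Among circRNAs over 500 bp the same ratios were 0.98 (0.97 to 0.99) and 1.10 (1.08 to 1.12), in the same directions and nearer to 1. The higher sum of the uncatalogued rested on structured noncoding RNAs, described below. Without them, uncatalogued short circRNAs had 2300 and 2019 reads (0.93, 0.87 to 0.98), so their sum was also lower in the bone cancer pain library.

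A circRNA was called higher or lower by size alone, at 2-fold or more with 0.5 reads added to each library and with 10 or more reads over both. Of the 1354 short circRNAs, 469 had 10 or more reads. In these, 62 (13.2%) were higher in the bone cancer pain library, beside 17.3% of all 5415 circRNAs with 10 or more reads. Another 88 (18.8%) were lower, beside 17.0% of all, and 319 lay between. Of the 62, 16 were not listed in the control, and 21 of the 88 were not listed for bone cancer pain. The interval of the ratio also excluded 1 for 40 of the higher (8.53%, beside 10.7% of all) and 62 of the lower (13.2%, beside 10.2%). The median log2 ratio was -0.16 over the 469, and it was -0.004 over all 5415 circRNAs and 0.02 over the 4523 longer ones with 1 host name. A ratio below 1 was found for 266 and above 1 for 203. Since reads are shared out within a library, a lower share of some circRNAs means a higher share of others.

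**Figure D2:**
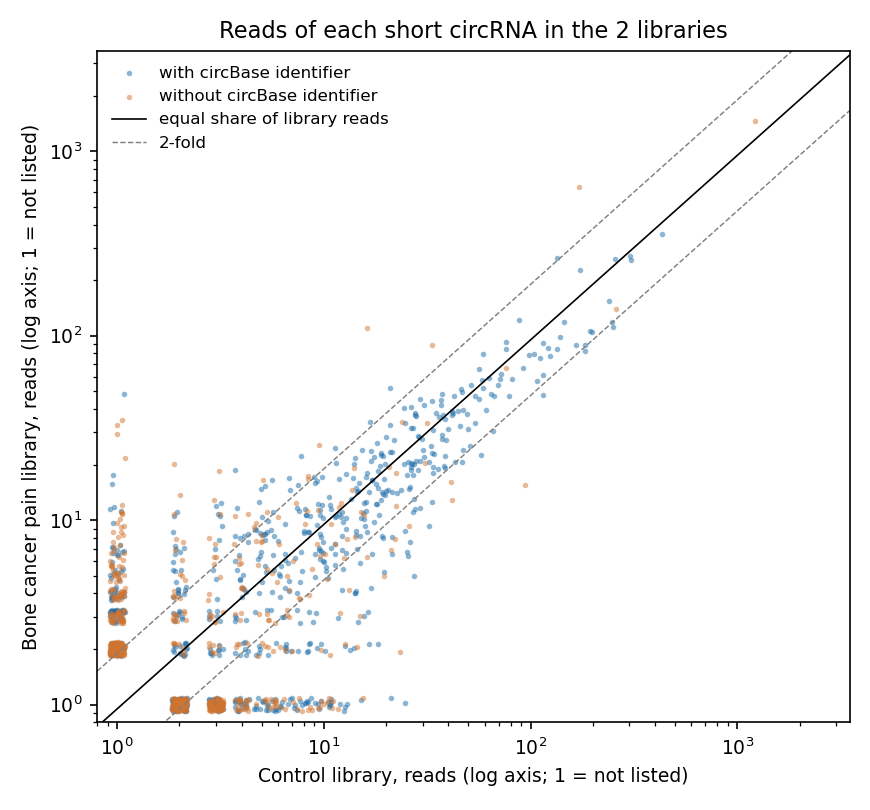
Reads of each short circRNA in the control (horizontal, log axis) and the bone cancer pain library (vertical, log axis), coloured by circBase status; a circRNA not listed in a library is drawn at 1, and points are moved slightly at random so that equal counts can be seen. The solid line marks equal shares of the library totals and the dashed lines 2-fold; 62 circRNAs with 10 or more reads lay at or above and 88 at or below the dashed lines, with 0.5 reads added.

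The catalogued short circRNAs with the most reads were mostly lower. Of 43 with 100 or more reads, 32 (74.4%) had a ratio below 1 and the median log2 ratio was -0.31. Over 500 bp, 200 of 357 catalogued circRNAs with 100 or more reads (56.0%) had a ratio below 1, with a median of -0.08. The shares below 1 were 61.9% (39 of 63) for catalogued short circRNAs with 50 to 99 reads, 56.4% (71 of 126) with 20 to 49 and 54.6% (71 of 130) with 10 to 19. In the same classes over 500 bp they were 53.1%, 51.2% and 48.2%. Few circRNAs of this abundance passed 2-fold in either span group. Over 500 bp, 20 of the 357 were higher and 20 lower. Of the 43 short ones, 1 was higher (NUDC) and 1 lower, that of SAFB2, a scaffold attachment factor (hsa_circ_0000880, 354 bp). The circRNA of SAFB2 had 186 control reads and 80 bone cancer pain reads (0.45, 0.34 to 0.59). The interval lay below 1 for 16 of the 43, above 1 for 4 and included 1 for 23.

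The 15 short circRNAs with the most reads are given singly, beginning with those of 12 protein-coding genes and a long noncoding RNA. The most abundant was that of DYNC1H1, the heavy chain of cytoplasmic dynein (hsa_circ_0002398, chr14:102506573-102507010, 438 bp). It had 462 control reads and 331 bone cancer pain reads (0.76, 0.65 to 0.87). The circRNA of EPHB4, a receptor tyrosine kinase for ephrin-B2 (hsa_circ_0001730, chr7:100410369-100410830, 462 bp), had 316 and 289 reads (0.96, 0.82 to 1.13). The interval included 1, as it did for the next 2.

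The circRNA of SMARCA5, the ATPase of ISWI chromatin remodelling complexes (hsa_circ_0001445, chr4:144464662-144465125, 464 bp), had 292 and 264 reads (0.95, 0.80 to 1.13). That of PVT1, a long noncoding RNA gene next to MYC (hsa_circ_0001821, chr8:128902835-128903244, 410 bp), had 253 and 248 (1.03, 0.86 to 1.24). These were among the most even of the abundant short circles. The circRNA of AXL, a receptor tyrosine kinase for the ligand GAS6 (hsa_circ_0002882, chr19:41754419-41754725, 307 bp), was higher, with 185 and 231 (1.32, 1.08 to 1.61). The circRNA of NUDC, a protein that works with dynein in nuclear movement and mitosis (hsa_circ_0005087, chr1:27269151-27269556, 406 bp), had 136 and 265 (2.05, 1.66 to 2.55). With median of ratios scaling this ratio was 1.95, short of 2-fold. NUDC had a second short circRNA (hsa_circ_0003940, 362 bp) with 20 and 19 reads (1.00, 0.51 to 1.98), and the 2 intervals overlap.

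The other 7 of this group were all lower in the bone cancer pain library, with intervals below 1. A junction of TEAD1, the DNA-binding partner of YAP in Hippo signalling (chr11:12785726-12785981, 256 bp), had no circBase identifier. It had 264 and 141 reads (0.56, 0.46 to 0.69). The circRNA of POMT1, an enzyme of protein O-mannosylation (hsa_circ_0001897, 340 bp), had 241 and 159 (0.70, 0.57 to 0.85). That of CLASP1, which binds growing microtubule ends (hsa_circ_0007052, 480 bp), had 262 and 127 (0.51, 0.41 to 0.63).

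ARHGAP10, a GTPase-activating protein (hsa_circ_0071099, 231 bp), had 240 and 114 reads (0.50, 0.40 to 0.63). POLR2A, the largest subunit of RNA polymerase II (hsa_circ_0000741, 453 bp), had 207 and 100 (0.51, 0.40 to 0.65). SRSF4, a serine- and arginine-rich splicing factor (hsa_circ_0006602, 215 bp), had 201 and 100 (0.52, 0.41 to 0.67). CCDC9 (hsa_circ_0000944, 344 bp) had 182 and 92 (0.53, 0.41 to 0.69). The share of these 4 was close to 2-fold lower for bone cancer pain, and none reached the 2-fold limit once 0.5 reads were added. With median of ratios scaling the ratio was 0.48 for POLR2A and for CLASP1, 0.47 for ARHGAP10 and 0.50 for SRSF4. Over the 15, the interval lay below 1 for 8, above 1 for 4 and included 1 for 3.

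**Figure D3:**
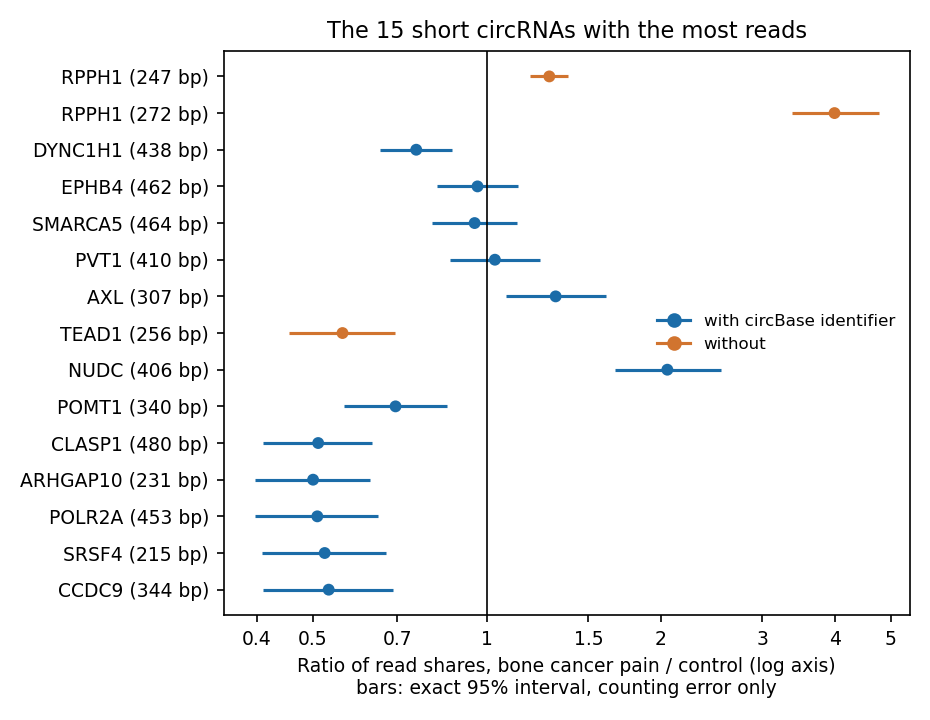
Ratio of read shares, bone cancer pain over control (horizontal, log axis), for the 15 short circRNAs with the most reads, with host gene and span in bp; bars are exact 95% intervals for counting error in 1 library per group. The ratios run from 0.50 for ARHGAP10 to 4.00 for the 272 bp form of RPPH1, and 8 of the 15 intervals lie below 1.

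Structured noncoding RNAs gave the largest block of reads in 1 host. RPPH1 is the RNA of ribonuclease P, which trims the 5′ ends of tRNAs, and the table held 8 short junctions of it, all without a circBase identifier. They lay within 284 bp (chr14:20811283-20811566), and 7 of the 8 shared a start or an end with another. The 247 bp form from 20811283 to 20811529 had 1241 control reads and 1511 bone cancer pain reads (1.28, 1.19 to 1.39). The 272 bp form from 20811288 to 20811559 had 169 and 641 (4.00, 3.37 to 4.77). A second 247 bp form, from 20811288 to 20811534, had 36 and 88 (2.58, 1.73 to 3.91). Forms listed only for bone cancer pain had 35 reads (242 bp), 34 (155 bp), 12 (277 bp) and 4 (162 bp), and that of 187 bp had 2 reads in the control alone. Summed, RPPH1 had 1448 and 2325 reads (1.69, 1.59 to 1.81). Because the forms overlap, they are not separate measurements of the host.

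The list of structured noncoding RNAs held 14 short circRNAs of 6 hosts, with 1450 control reads and 2410 bone cancer pain reads (1.75, 1.64 to 1.87). None had a circBase identifier, 9 were listed for bone cancer pain alone and 1 for the control alone, beside 29.4% and 28.6% of all 17260 circRNAs. Of the 7945 uncatalogued circRNAs among all, 3159 were listed for bone cancer pain alone and 2855 for the control alone. Of 10 on the list with 10 or more reads, 9 were higher and none lower, beside 17.3% and 17.0% of all circRNAs with 10 or more reads. Several of the 10 are overlapping forms of RPPH1. Those not listed in the control passed the minimum through the bone cancer pain library alone and could only be called higher. For them, the median log2 ratio of 4.59 rests on the 0.5 reads added. Beside RPPH1, RN7SL2, a copy of the RNA of the signal recognition particle (chr14:50329275-50329523, 249 bp), had 2 and 21 reads (11.1, 2.71 to 97.4). RMRP, the RNA of ribonuclease MRP, had none listed and 27 reads on a 165 bp junction and none and 2 on a 265 bp one. The nuclear RNA MALAT1 had none and 23 on 1 junction of 175 bp, while its 5 longer junctions had 15 and 13. The small Cajal body RNA SCARNA10 (172 bp) had none and 10, and NEAT1 (190 bp) none and 2. RN7SL2 has many near-identical copies in the genome, so its reads may belong to others. The name Y_RNA, chosen after its values were seen, stood for 3 further junctions at different places, with 13 and 4 reads, 4 and none listed, and 2 and 8.

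Histone genes, most of which have no introns and whose mRNAs end in a stem-loop in place of a poly(A) tail, gave 12 short circRNAs of 9 genes. They had 46 control reads and 222 bone cancer pain reads (5.09, 3.69 to 7.15). Of the 12, 8 were listed for bone cancer pain alone and none for the control alone, and 1 had a circBase identifier. Beside these stand 29.4% and 28.6% of all circRNAs, and 3159 and 2855 of the 7945 uncatalogued ones. Of the 4 histone circRNAs with 10 or more reads, 2 were higher and 2 between, with a median log2 ratio of 1.73. Of all circRNAs with 10 or more reads, 17.3% were higher. HIST1H1C, a linker histone, had 15 and 112 reads on a 195 bp junction (chr6:26056054-26056248; 7.87, 4.57 to 14.5). It had 23 and 41 on the 138 bp circRNA given above (1.88, 1.10 to 3.28), and none and 9 on a 183 bp one that overlaps both. HIST1H1B, another linker histone (145 bp), had 3 and 19 (6.68, 1.97 to 35.2). HIST1H2BG, a core histone (304 bp), had 5 and 7 (1.48, 0.40 to 5.90). Histone genes are near copies of each other within a class, so reads may be split between them. Leaving out the structured noncoding RNAs, the histones and Y_RNA, a choice made after seeing the data, left 453 short circRNAs with 10 or more reads. Of these, 50 (11.0%) were higher and 87 (19.2%) lower, with a median of -0.19. Over all circRNAs, with none left out, 17.3% were higher and 17.0% lower.

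The highest ratios among the 268 short circRNAs listed in both libraries with 20 or more reads began with RN7SL2, HIST1H1C and HIST1H1B, given above. Next came KPNA3, an importin alpha that carries proteins into the nucleus (hsa_circ_0000485, chr13:50280234-50280508, 275 bp). It had 4 control reads and 19 bone cancer pain reads (5.01, 1.66 to 20.2). After the 272 bp form of RPPH1 followed HGS, a sorting protein of early endosomes (312 bp, no circBase identifier), with 5 and 16 reads (3.37, 1.18 to 11.8). PIP5K1A, a kinase that makes the lipid PIP2 (hsa_circ_0003432, 206 bp), and EEF2K, the kinase of elongation factor eEF2 (hsa_circ_0038487, 322 bp), each had 5 and 15 (3.16, 1.09 to 11.1). With so few control reads the intervals are wide, and 5 of these 8 circRNAs lacked a circBase identifier.

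The lowest ratios came from hosts of varied function. MCAM, a cell adhesion molecule (chr11:119182762-119183108, 347 bp), had 22 control reads and 2 bone cancer pain reads (0.096, 0.011 to 0.39). BLVRB, a biliverdin reductase (hsa_circ_0003061, 391 bp), had 18 and 2 (0.12, 0.013 to 0.49). Neither host had a longer circRNA in the table.

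TAOK1, a kinase upstream of p38 (hsa_circ_0002839, 226 bp), had 29 and 5 reads (0.18, 0.055 to 0.47). CENPO, a centromere protein (hsa_circ_0052999, 170 bp), had 17 and 3 (0.19, 0.035 to 0.64). CTBP2, a transcriptional corepressor (hsa_circ_0020353, 159 bp), had 24 and 6 (0.26, 0.088 to 0.66). SAFB (306 bp) had 20 and 5 (0.26), while the 3 short circRNAs of SAFB had 40 and 33 in all (0.87, 0.53 to 1.4). RAP1B, given above, had 16 and 4 (0.26). The intervals of these 7 circRNAs lay below 1, and 5 of them were catalogued.

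Short circRNAs listed in 1 library have no ratio. In the bone cancer pain library the 6 with the most reads were those of SPC24, a kinetochore protein (296 bp, 45 reads), forms of RPPH1, RMRP and MALAT1 given above, and BRWD3, a bromodomain protein (hsa_circ_0091178, 292 bp, 17 reads). In the control library they were those of WDR62, a spindle pole protein (269 bp, 24 reads), MED14, a Mediator subunit (381 bp, 22), ZC3H18 (269 bp, 15) and PTPLA (488 bp, 14). A further 6 tied at 12 reads, namely those of the clathrin adaptor partner NECAP1, the kinetochore protein KNTC1, the matrix glycoprotein THBS1, the deubiquitinase USP34, LRWD1 and CTB-131B5.5. Of the 10 listed only in the control, 7 were catalogued, and of the 6 listed only in the bone cancer pain library, 2. For 5 of those 10 and 2 of those 6, the host also had longer circRNAs among rows with 1 host name. KNTC1 had 51 control reads and 78 bone cancer pain reads on its longer ones, USP34 79 and 76, and BRWD3 14 and 17.

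Most hosts had a single short circRNA. Of the 1160, 1021 had 1, 111 had 2 and 28 had 3 or more. The gene of the actin crosslinker filamin A, FLNA, had the most, with 14 short circRNAs of 140 to 453 bp. Of these, 3 were listed in both libraries. The control alone listed 5 and bone cancer pain alone 6, and 2 of the 14 were catalogued. Beside these stand 28.6% and 29.4% of all circRNAs, and 2855 and 3159 of the 7945 uncatalogued ones. None of the 14 had over 18 reads over both, and together they had 47 and 41 (0.92, 0.59 to 1.43). The 5 longer circRNAs of FLNA had 69 and 6 reads (0.092, 0.033 to 0.21). RPPH1 had 8 short forms, followed by AHNAK, a giant scaffold protein, with 6, all uncatalogued and with 6 and 7 reads in all. CAPRIN1, an RNA-binding protein of stress granules, had 5, with 18 and 7 reads (0.41, 0.14 to 1.03), against 27 and 46 on its 6 longer circRNAs (interval of the ratio 1.09 to 3.01). DYNC1H1, SMC1A, CHD2 and MYH9 had 4 each, as did AGRN (9 and 13 reads) and LMNA, the gene of lamins A and C (6 and 4). SMC1A, a cohesin subunit with no longer circRNA under its name alone, had 69 and 49 reads (0.75, 0.51 to 1.10). CHD2, a chromatin remodeller, had 27 and 19 (0.74, 0.39 to 1.39), against 185 and 246 on longer ones (1.40, 1.15 to 1.71). MYH9, a nonmuscle myosin heavy chain, had 10 and 12 (1.27, 0.50 to 3.27), against 214 and 143 (0.70, 0.57 to 0.87).

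Short circRNAs shared ends and sequence with others of the table. An end was shared with another listed circRNA by 543 of the 1354 (40.1%), the start by 328 and the end by 310. Within a longer circRNA of the same host lay 544 (40.2%), and 65 overlapped another short one. For 780 of the 1160 hosts (67.2%) the table also held longer circRNAs, while 380 hosts had short ones only. Of 570 hosts with both kinds and 20 or more reads, a median of 16.8% of the host's reads was on short ones. In 147 of the 570 it was over 50% and in 36 over 90%. In hosts with longer circRNAs, a short circRNA had the most reads in 287 of 780.

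The short and longer circRNAs of a host could be compared in 125 hosts, each with 20 or more reads on both kinds and with a junction of each kind listed in both libraries. Both sums are from the same 2 libraries. The 125 include the name Y_RNA, which stood for junctions at different places and is not a single gene. In 54 hosts the ratios lay on the same side of 1 and in 71 on opposite sides. The sums differed by 2-fold or more in 46 of the 125 (36.8%), with the short ones above in 17 and below in 29. The 2 intervals did not overlap in 24 of 125 (19.2%), with the short ones above in 7 and below in 17. The median difference, short minus longer, was -0.17 on the log2 scale.

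Among hosts whose short circRNAs were relatively lower, CSE1L, an export receptor for importin alpha, had 19 control reads and 3 bone cancer pain reads on short circRNAs (0.17, 0.032 to 0.57). Its longer ones had 15 and 33 (2.32, 1.23 to 4.60). SNX6, a sorting nexin of the retromer pathway, had 25 and 9 (0.38, 0.16 to 0.84) against 17 and 59 (3.66, 2.10 to 6.70). The ratios of both hosts lay on opposite sides of 1. SENP6, a SUMO protease, had 25 and 7 (0.30, 0.11 to 0.70) against 41 and 69 (1.78, 1.19 to 2.68). GLIS3, a zinc finger transcription factor, had 112 and 52 (0.49, 0.35 to 0.69) against 38 and 55 (1.53, 0.99 to 2.37).

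ARHGAP10 had 242 and 114 on short circRNAs (0.50, 0.39 to 0.62) against 601 and 500 on 26 longer ones (0.88, 0.78 to 0.99). PVT1 had an even short circle, given above, and 24 and 48 reads on longer ones (2.11, 1.27 to 3.60). In the other direction, AXL had 200 and 245 on 3 short circRNAs (1.29, 1.07 to 1.57) and 86 and 44 on longer ones (0.54, 0.37 to 0.78). EEF2K had 5 and 19 (4.01, 1.45 to 13.7) against 26 and 9 (0.37, 0.15 to 0.80), and PIP5K1A 5 and 17 (3.59, 1.27 to 12.4) against 25 and 11 (0.46, 0.21 to 0.98). The hosts named here were picked, after their values were seen, from the 24 of 125 whose 2 intervals did not overlap. Their lack of overlap therefore follows from the choice. There was no replicate to give the spread between libraries, and a difference beyond that spread was not tested.

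**Figure D4:**
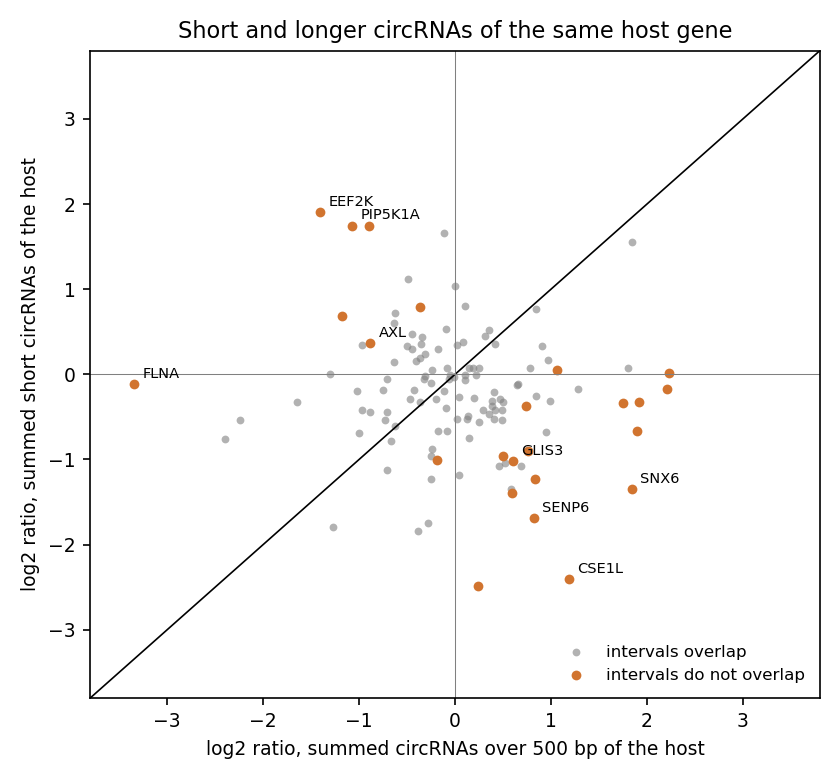
Log2 ratio, bone cancer pain over control, of the summed short circRNAs (vertical) against the summed circRNAs over 500 bp (horizontal) for 125 host names. Each sum had 0.5 reads added. Orange points are the 24 hosts whose exact 95% intervals do not overlap, 17 of them below and 7 above the line of equal ratios.

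Short circRNAs of other gene lists were few. Each list names some genes of a class and not all, and counts hold for the listed genes alone. Among listed actin, myosin and filament crosslinker genes, 36 short circRNAs of 11 hosts had 85 control reads and 91 bone cancer pain reads (1.13, 0.83 to 1.54). Of the 36, 6 were catalogued. The control alone listed 13 and bone cancer pain alone 18. Beside these stand 28.6% and 29.4% of all circRNAs, and 2855 and 3159 of the 7945 uncatalogued ones. Of 5 with 10 or more reads (median log2 ratio -0.87) none was higher and 2 lower, a 190 bp junction of the coronin gene CORO1C (11 reads and none listed) and a 257 bp one of FLNA (10 and none listed). The others were a 290 bp junction of FLNA (12 and 6), its 242 bp one (4 and 6) and 1 of MYH9 (5 and 9). For the listed extracellular matrix genes, 16 short circRNAs of 10 hosts had 73 and 63 reads (0.91, 0.64 to 1.29). Of 5 with 10 or more reads (median log2 ratio 0.28) none was higher and 1 lower, that of THBS1 given above. HSPG2, the heparan sulphate proteoglycan perlecan (359 bp), had 34 and 20 (0.62, 0.34 to 1.11), and AGRN, agrin (189 bp), 4 and 8 (2.11, 0.56 to 9.57).

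The 26 listed mitosis and kinetochore genes had 7 short circRNAs with 36 and 69 reads (2.02, 1.33 to 3.11). Of 3 with 10 or more reads, those of SPC24 and of KIF23, a kinesin of cytokinesis (312 bp, 7 and 15 reads; 2.26, 0.87 to 6.55), were higher and that of WDR62 lower (median log2 ratio 1.12). Without SPC24, left out after its values were seen, the list had 36 and 24 reads (0.70, 0.40 to 1.21). CENPO and KNTC1, given above as lower and as listed only in the control, are outside the list. The 25 listed chromatin regulators had 12, with 361 and 299 reads (0.87, 0.75 to 1.02), most of them on SMARCA5. Of 4 with 10 or more reads (median log2 ratio -0.28) none was higher and 1 lower, that of the histone deacetylase HDAC9 (264 bp, 19 and 5 reads; 0.28, 0.081 to 0.77).

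The 29 listed splicing factors and RNA-binding proteins had 6, with 283 and 186 reads (0.69, 0.57 to 0.84). None of 3 with 10 or more reads passed 2-fold (median log2 ratio -0.45), and SRSF4, given above, held most of the reads. PNN, a protein of splicing speckles (372 bp, no circBase identifier), had 74 and 69 (0.98, 0.70 to 1.38), and DDX17, an RNA helicase, 6 and 4. The listed translation genes had 9, with 48 and 36 reads (0.79, 0.50 to 1.24), among them the ribosomal protein gene RPL17 with 16 and 17 (1.12, 0.53 to 2.37), and none of 3 with 10 or more reads passed 2-fold (median log2 ratio -0.16). Outside the list, and chosen after its values were seen, the initiation factor gene EIF4B had 22 and 50 on 1 short circRNA (2.40, 1.43 to 4.16). The 19 listed chaperones and secretory proteins had 5, with 110 and 63 reads (0.60, 0.44 to 0.83), nearly all on P4HB, a protein disulphide isomerase (445 bp, 106 and 59; 0.59, 0.42 to 0.81), the only one of the list with 10 or more reads, which did not pass 2-fold. In the MAPK/ERK list, the pathway named in the series title, 4 short circRNAs had 21 and 24 reads (1.21, 0.64 to 2.28). The only one with 10 or more reads was that of SOS2, an exchange factor for RAS (223 bp, 15 and 18; 1.27, 0.60 to 2.70), which did not pass 2-fold.

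Ratios also differed between span classes, and with catalogue status within them. Catalogued circRNAs up to 200 bp had 1076 control reads and 927 bone cancer pain reads (0.91, 0.83 to 0.99). Those of 201 to 300 bp had 3231 and 2452 (0.80, 0.76 to 0.84), those of 301 to 400 bp 3331 and 2678 (0.85, 0.81 to 0.89) and those of 401 to 500 bp 4693 and 3870 (0.87, 0.83 to 0.91). All 4 short classes were thus below 1, as were 3 longer ones, nearer to it. Above the limit, catalogued circRNAs of 501 to 1000 bp stood at 0.98 (0.96 to 1.01), those of 1001 to 5000 bp at 0.96 (0.95 to 0.97), those of 5001 to 20000 bp at 0.97 (0.95 to 0.98), and those of 20001 to 50000 bp at 1.07 (1.04 to 1.09).

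Uncatalogued circRNAs did not follow that order. They stood at 1.81 (1.60 to 2.05) up to 200 bp and 1.30 (1.23 to 1.37) from 201 to 300 bp, the class with most RPPH1 reads. Without structured noncoding RNAs and histones, a choice made after seeing the data, these were 1.20 (1.04 to 1.38; 392 and 445 reads) and 0.74 (0.68 to 0.82; 1015 and 717 reads), so the second lay on the other side of 1. From 301 to 400 bp they stood at 0.73 (0.65 to 0.83), with 671 and 466 reads, and 12 of the 24 with 10 or more reads were lower and 3 higher. From 401 to 500 bp, with 204 and 217 reads, the uncatalogued stood at 1.12 (0.92 to 1.37). Over catalogued and uncatalogued together, the class from 301 to 400 bp had 8 higher (6.25%) and 30 lower (23.4%) of 128 with 10 or more reads. The class from 401 to 500 bp had 10 and 10 of 101 (9.90% each). Of all circRNAs with 10 or more reads, 17.3% were higher and 17.0% lower.

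**Figure D5:**
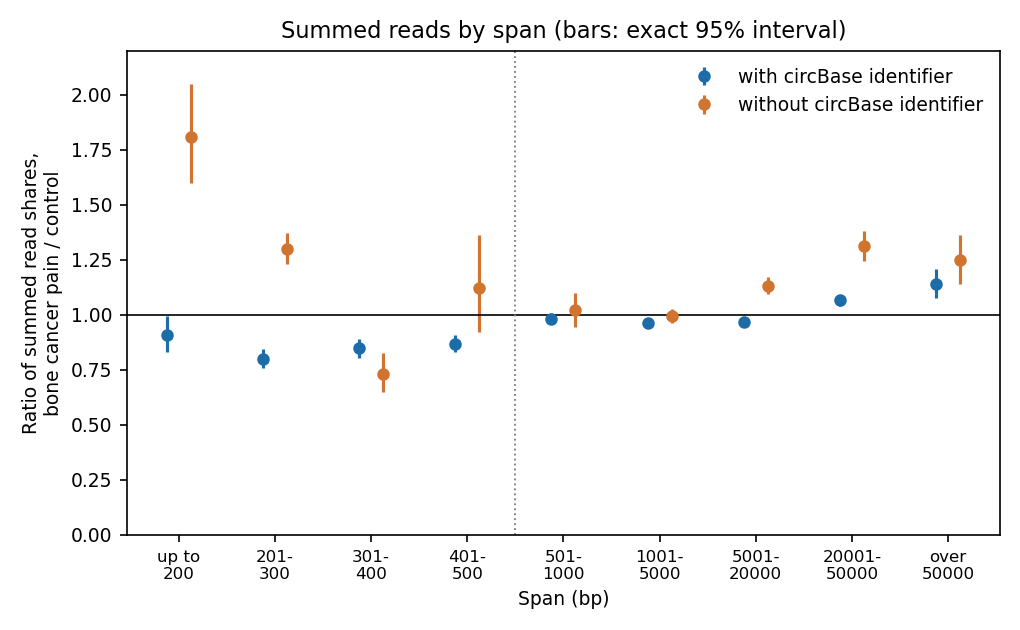
Ratio of summed read shares, bone cancer pain over control (vertical axis), by span class in bp (horizontal axis), for circRNAs with 1 host name with and without a circBase identifier; bars are exact 95% intervals for counting error, and the dotted line marks the 500 bp limit. Catalogued circRNAs lie below 1 in all 4 classes up to 500 bp, from 0.80 to 0.91, and uncatalogued ones run from 0.73 to 1.81.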

How the data were processed

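Circular junctions were measured in 1 library for each of 2 groups. The file headers call the deposited values TPM, and they were read here as RPM. In each library 100% of listed values were whole multiples of 1 step, within 0.01 reads, and the sums were 1000006.5 and 1000004, so dividing by the step gave reads. The placeholder 0.001 was taken as not listed. Per the submitters' processing notes, CASAVA 1.8, BWA and rn6 were used, with no role given; the circRNA caller is not given in the sources used here.

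Ratios are shares of all reads of a library, with exact conditional binomial 95% intervals. Calls needed 10 or more reads over both libraries and a ratio of 2 or 0.5 with 0.5 reads added. The other settings tried are given in the closing section. The calls were tested on simulated data. Members and lists were chosen with earlier results of these data known. Named were the 15 members with most reads, the 8 highest and 8 lowest ratios among those listed in both libraries with 20 or more reads, the 6 with most reads in each library alone (with ties), the 8 hosts with most members (ties by control reads; those tied are also given), the 3 shortest and 3 longest, and the highest, lowest and most abundant of each list. Of these, list members beyond those described are not given singly; hosts compared singly and values at the limit were chosen after values were seen. One circRNA that this rule names is not reported here. The lists were structured noncoding RNAs, histones, actin and myosin, extracellular matrix, translation, chaperones, mitosis, chromatin, splicing, MAPK/ERK and the cell markers. Tools were scipy 1.17.1 and numpy 2.4.6 for statistics, pandas 2.3.3 for tables and matplotlib 3.10.9 for figures, under Python 3.11.15.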

Additional observations from a re-analysis of the deposited data

How the results depend on the processing

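The median log2 ratio of the short circRNAs stayed negative under each of the settings run. It ran from -0.24 with scaling by the median of ratios (a shift of -0.076 in every log2 ratio) to -0.12 when scaled by catalogued reads. Rescaling moves the median over all circRNAs (-0.004 in the main setting) by the same shift. It therefore says nothing about the difference between short circRNAs and the others. The numbers higher and lower were 62 and 88 of 469. They became 130 and 170 of 726 with a minimum of 5 reads and 26 and 34 of 275 with a minimum of 20. At a ratio of 1.5 they were 108 and 149 of 469. These settings change how many circRNAs can pass. The shares over all circRNAs were not taken at them, so these counts have no background beside them. With catalogued circRNAs only, 32 of 362 (8.84%) were higher and 60 (16.6%) lower, beside 15.4% and 16.2% of all catalogued circRNAs. With an interval that also excludes 1, 40 of 469 (8.53%) were higher and 62 (13.2%) lower, beside 10.7% and 10.2% of all circRNAs. The share with a circBase identifier was 77.2% with a minimum of 10 reads. The shares of control and bone cancer pain reads were 6.99% and 6.77% with spans up to 400 bp, 11.9% and 11.2% up to 600 bp, 9.15% and 7.88% without structured noncoding RNAs, 8.95% and 8.43% with a minimum of 10 reads, and 9.15% and 7.93% without RPPH1. Summed over all circRNAs naming that host alone, the ratio of CAPRIN1 turned from 0.41 to 1.24. Also across 1 went CHD2 (0.74 to 1.32), MYH9 (1.27 to 0.73) and AHNAK (1.23 to 0.91), while FLNA went from 0.92 to 0.43. Without SPC24, a choice made after its values were seen, the summed ratio of the mitosis list turned from 2.02 to 0.70. Without structured noncoding RNAs and histones, also chosen after seeing the data, the uncatalogued sum turned from 1.30 to 0.74 at 201 to 300 bp and went from 1.81 to 1.20 up to 200 bp. The ratios of all 30 named circRNAs stayed within their intervals under median of ratios scaling. That scaling moves every ratio by the same small factor, less than any of these intervals spans, so it could not have moved one outside. No paired analysis was possible because each group had 1 library. A depth of 2 reads as the lowest listed value limits what can be said of circRNAs listed in 1 library.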
